A study of Mus musculus with 48 samples.

Results

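The comparison set 3 superior colliculus (SC) libraries of axotomized sarm1ko mice against 3 SC libraries of intact wild-type mice, 6 of the 48 libraries of the series, across all 17991 genes with enough counts out of 54331 listed. In both groups 5-ethynyl uridine (EU), a uridine analogue that is built into newly made RNA, was injected into the vitreous of the eye, and EU-containing RNA was later captured by click chemistry from the SC, the midbrain target of retinal ganglion cell axons. The sarm1ko animals were labelled at postnatal day 14 (P14), the label was chased for 7 days, and the labels call the animals axotomized. The wild-type animals were labelled at P10, chased for 4 days and called naïve for axotomy. Genotype, axotomy, age at labelling and chase length therefore change together, and by the sum of the labels the tissue was collected at day 21 against day 14. Uncut sarm1ko and cut wild-type animals were not analysed here, so these differences cannot be told apart. The protocol describes SC tissue pooled from 3 animals for each EU library. The allele of the sarm1ko mice is not stated in the labels.

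Retinal ganglion cells send long axons through the optic nerve to the SC, and mRNAs carried into these axons can be translated far from the cell body. A pulse of EU in the eye labels RNA at the source, and after a chase the label found in the SC includes RNA that travelled and survived. An axon cut off from its cell body receives no new RNA from it. SARM1 is an NAD-cleaving enzyme whose activation drives the breakdown of injured axons, and axons that lack it outlast a cut for days or longer. Chased label in cut, SARM1-deficient axons and in intact axons could bear on which axonal RNAs persist without supply from the soma. The present comparison cannot isolate this, as RNA of other cells is abundant and genotype, axotomy, age and chase change together. RNA levels here are shares of each library, and in bulk tissue fewer axons or cells of a type and less RNA in each cannot be told apart.

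The 6 libraries held 11085491 to 19226973 estimated counts each and detected 20650 to 24691 genes. Before any gene is compared, the composition of the groups differed. A ribosomal RNA gene, CT010467.1, took 46.6%, 27.4% and 48.5% of all counts in the sarm1ko libraries and 5.16%, 9.46% and 0.31% in the wild-type libraries. Mitochondrially encoded genes took another 23.4%, 13.1% and 31.4% against 11.8%, 2.58% and 3.61%. The part that these shares have in the results was not tested. A fit without CT010467.1 and the mitochondrial genes called 3863 genes, and the fit with them 3814. Levels are given as CPM, estimated counts scaled to library size by TMM factors. On a scale shared by 15 EU libraries, CT010467.1 was at 794210, 258430 and 1250700 CPM in sarm1ko. Single wild-type libraries of the P10, P14 and 8-week groups, at 278370, 373460 and 336660 CPM, lay above sarm1ko replicate 2. The remaining wild-type libraries were at 105200 CPM or less. Correlations of log2 CPM were 0.891 to 0.923 among the wild-type libraries, 0.897 to 0.916 among the sarm1ko libraries and 0.748 to 0.877 between the groups. Sarm1ko replicate 2, with the least ribosomal RNA of its group, was the one closest to the wild-type libraries.

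RNA of cells other than ganglion cells was abundant in both groups. Of 20 ganglion cell markers 13 had enough counts to be tested. Isl2, a ganglion cell transcription factor, was at 0 in all 6 libraries, and the ganglion cell RNA-binding protein gene Rbpms lay between 1.85 and 7.68 CPM on a scale shared by 15 EU libraries. Other ganglion cell markers, which neurons of the SC also express, were higher, with Thy1 at 81.9 to 671 CPM and the glutamate transporter gene Slc17a6 at 35.7 to 116 CPM. On that scale the myelin gene Mbp lay between 2283 and 5924 CPM.

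Sarm1 itself (chromosome 11, 78472330 to 78497754, minus strand, GENCODE M21 on GRCm38) was lower in the sarm1ko libraries and not absent. Its level was 3.93, 3.82 and 3.11 CPM in the sarm1ko libraries and 12.6, 16.5 and 20.5 CPM in the wild-type libraries. The groups did not overlap, and the difference was a log2 fold change of -2.18 ± 0.40 (SE), a 4.54-fold lower level (edgeR quasi-likelihood test, adjusted p = 0.00276). On the scale shared by 15 EU libraries the sarm1ko values of 4.08, 4.12 and 3.22 CPM also lay below the lowest of 12 wild-type libraries, 5.11 CPM in replicate 2 of the 8-week group. Gene-level counts do not say whether the remaining reads lie inside or outside a deleted part.

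A gene is called here when its adjusted p in edgeR's quasi-likelihood test is under 0.05. In all, 3814 of 17991 genes were called, 21.2% of those tested: 1774 were higher in axotomized sarm1ko, which is 9.86%, and 2040 were lower, which is 11.3%. The number of calls depended on single libraries and on how the spread was estimated. It was 1546 without sarm1ko replicate 1, 1581 without sarm1ko replicate 3 and 2041 without wild-type replicate 2. With a spread estimated over 6 EU groups, fmr1ko at P14 among them, it was 460, of which 51 were higher and 409 lower. The balance of the directions depended on the scale. On deposited TPM, where ribosomal RNA is part of every total, the median of all genes shifted by -0.75 and limma called 485 genes higher and 4942 lower. With TPM rescaled to nuclear protein-coding genes the median shifted by 0.41, and 2547 were higher and 777 lower. Directions below are relative to the median of all genes, which is 0.00 on the edgeR scale. Counts of list members called are to be read beside the 9.86% higher and 11.3% lower of all tested genes.

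**Figure D1:**
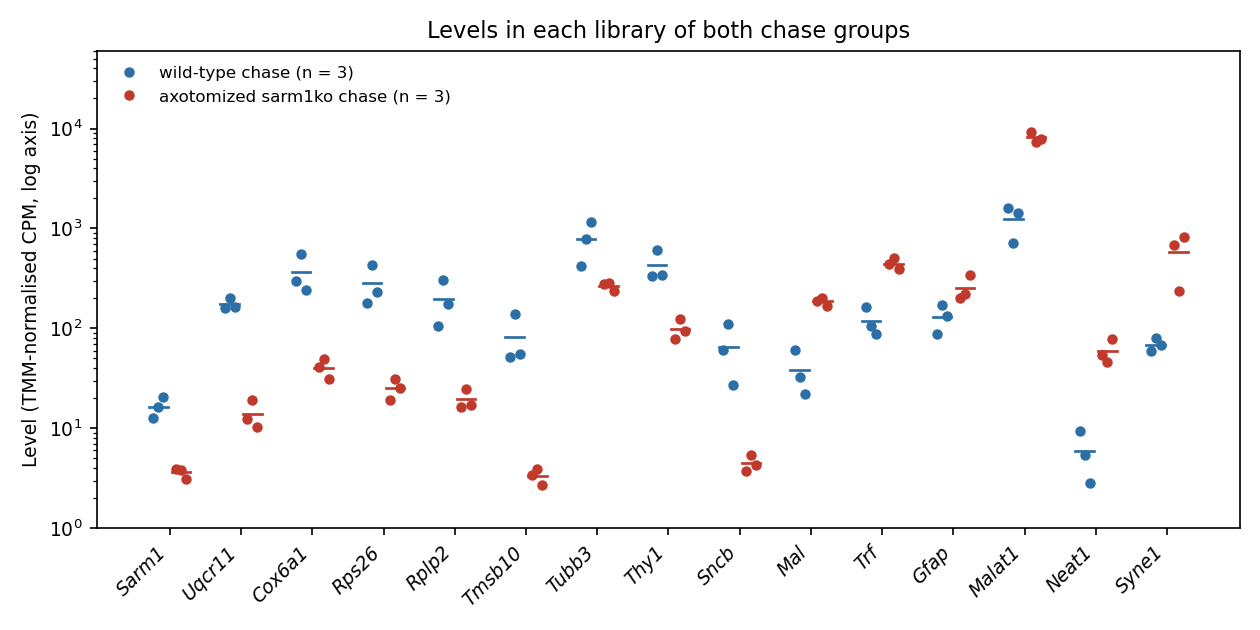
Level of 15 genes, some of them chosen after their values were seen, in each library (CPM, log axis), with the 3 axotomized sarm1ko and the 3 wild-type chase libraries as separate points and a bar at each group mean. Sarm1 lies at 3.11 to 3.93 CPM in sarm1ko and 12.6 to 20.5 CPM in wild type, and Malat1 at 7335 to 9242 CPM against 723 to 1614 CPM.

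The values of 3 genes that fell are given by library. Ttc9b (chromosome 7, 27653915 to 27657346), a tetratricopeptide repeat gene, was at 2.72, 4.27 and 2.07 CPM in sarm1ko and at 53.7, 106 and 93.9 CPM in wild type. That is a log2 fold change of -4.76 ± 0.40 (SE; edgeR adjusted p = 2.93e-05), a 27.1-fold lower level. Tmsb10 encodes thymosin beta 10, a small peptide that binds actin monomers and is abundant in growing neurons. It stood at 3.37, 3.91 and 2.72 CPM against 52.1, 138 and 55.9 CPM, a log2 fold change of -4.60 ± 0.44 (SE; edgeR adjusted p = 8.21e-05). The value was -4.0 without wild-type replicate 2. Uqcr11, a small subunit of respiratory complex III, stood at 12.5, 19.1 and 10.2 CPM against 160, 200 and 163 CPM. Its log2 fold change was -3.64 ± 0.33 (SE; edgeR adjusted p = 4.88e-05), and it was below every one of the 12 wild-type EU libraries. That the groups do not overlap for these 3 genes follows from the rule that named them, so it is no separate result.

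Sncb, which encodes beta-synuclein of presynaptic terminals, fell from 60.6, 109 and 26.8 CPM in wild type to 3.75, 5.38 and 4.28 CPM in sarm1ko, by 3.86 on the log2 scale. Fxyd7, a brain modulator of the sodium pump, fell by 4.06, and Fabp7, a fatty acid binding protein of radial glia, fell by 3.46. Eln, the gene of elastin, fell by 3.49 and Rps26, a protein of the small ribosomal subunit, by 3.48. Gp1bb fell by 4.19, or by 5.4 without sarm1ko replicate 2, but it overlaps Sept5 on the same strand and the reads of the pair may be divided between them. Rps12-ps3 fell by 3.51, and its reads may be shared with Rps12. All 10 of these genes were called in edgeR with any 1 library left out.

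The rises were led by mitochondrial RNA and by a mixed set of nuclear genes. The mitochondrial ribosomal RNA mt-Rnr2 rose by a log2 fold change of 5.81 ± 1.15 (SE; edgeR adjusted p = 0.00383) and mt-Rnr1 by 4.55 ± 1.01 (SE; edgeR adjusted p = 0.00713). Without wild-type replicate 1 the values were 6.93 and 6.21, and without sarm1ko replicate 3 they were 5.1 and 3.95. Per library, mt-Rnr1 ran at 60557, 10803 and 91189 CPM in sarm1ko and 5475, 638 and 820 CPM in wild type. The groups do not overlap, which the rule for named genes requires, but sarm1ko replicate 2 is nearer to wild type than to the rest of its group. On the scale of 15 EU libraries, 8-week wild-type replicate 2 had mt-Rnr1 at 202360 CPM, above every sarm1ko library. Its mt-Rnr2, at 195580 CPM, was above sarm1ko replicate 2, at 61504 CPM. The remaining wild-type libraries were at most at 5923 CPM for mt-Rnr1 and 13261 CPM for mt-Rnr2. Among nuclear genes, Srp54b, a copy of the gene of a signal recognition particle protein, was at 42.0, 44.1 and 37.3 CPM against 0.222, 3.92 and 0 CPM, and Erbin, a scaffold protein that binds ErbB2, was at 78.2, 77.3 and 109 CPM against 9.54, 7.28 and 2.50 CPM. Erbin rose by a log2 fold change of 3.78 ± 0.44 (SE; edgeR adjusted p = 0.000257). Srp54b rose by 4.98, a size that rests on wild-type replicates 2 and 3, with 8.71 without the former and 4.31 without the latter. Dnah7b, an axonemal dynein heavy chain gene, rose by 3.79, or by 3.13 without sarm1ko replicate 3, and Eno1b by 3.93, or by 4.52 without wild-type replicate 1. Srp54b and Eno1b have near-identical copies with which reads may be shared. Adnp, a homeobox gene, was at 57.6, 57.4 and 54.8 CPM against 0, 0 and 10.6 CPM. Its log2 fold change of 3.94 rests on wild-type replicate 3, without which that group is at 0, and its call was lost without any 1 of the sarm1ko libraries or without wild-type replicate 2 (highest edgeR adjusted p = 0.0801).

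Gh, the growth hormone gene (chromosome 11, 106300271 to 106301865), had no count in any wild-type chase library. In sarm1ko it stood at 7.40, 1.75 and 247 CPM, so the size of its rise was set by replicate 3. With 3 counts in the wild-type libraries together taken as the detection floor, the sarm1ko mean was at least 1770-fold higher (edgeR adjusted p = 0.00311). On the scale of 15 EU libraries Gh was also at 0 in all P10 and P14 libraries and at 25.7, 18.0 and 127 CPM in the 8-week wild-type libraries.

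The broadest change was in genes of oxidative phosphorylation, the mitochondrial machinery that turns oxygen and substrates into ATP. Its nuclear genes encode most subunits of complexes I to V, and mitochondrial DNA encodes the rest. Of 76 nuclear genes tested, 63 fell, none rose and 13 did not pass, with a median log2 fold change of -1.76 beside 0.00 over all genes. Summed over the list, the level was 3570, 6084 and 3757 CPM in sarm1ko and 11040, 14540 and 11170 CPM in wild type. Every sarm1ko sum was below every wild-type sum, and 68 of the 76 genes had no overlap between the groups. Of all tested genes 40.4% had none, 20.2% in each direction. The fall was spread over the complexes: 33 of 37 genes fell in complex I, 2 of 4 in complex II, 8 of 9 in complex III, 9 of 11 in complex IV and 11 of 14 in complex V. The medians were -1.64, -1.19, -1.92, -2.19 and -1.74. Cox6a1, a subunit of cytochrome c oxidase, was at 40.9, 49.0 and 30.9 CPM in sarm1ko and 295, 560 and 243 CPM in wild type, a log2 fold change of -3.18 ± 0.37 (SE; edgeR adjusted p = 0.000272).

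The most abundant members, Atp5a1 and Atp5b of the ATP synthase, did not pass. Atp5a1 had a log2 fold change of -0.71 ± 0.33 (SE; edgeR adjusted p = 0.136), and Atp5b, at 453, 894 and 577 CPM against 790, 907 and 891 CPM, of -0.43 ± 0.34 (SE; edgeR adjusted p = 0.393). The groups overlapped for Atp5b. Of the 76 genes 20 lay below all 12 wild-type EU libraries, where 1.77% of all tested genes did. With 1 library left out in turn between 43 and 69 genes of the list fell. On deposited TPM 69 fell, and on rescaled TPM 37 fell. With the spread of 6 EU groups 25 fell, and after removal of a trend on transcript length 40 fell, with a median of -1.14.

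**Figure D2:**
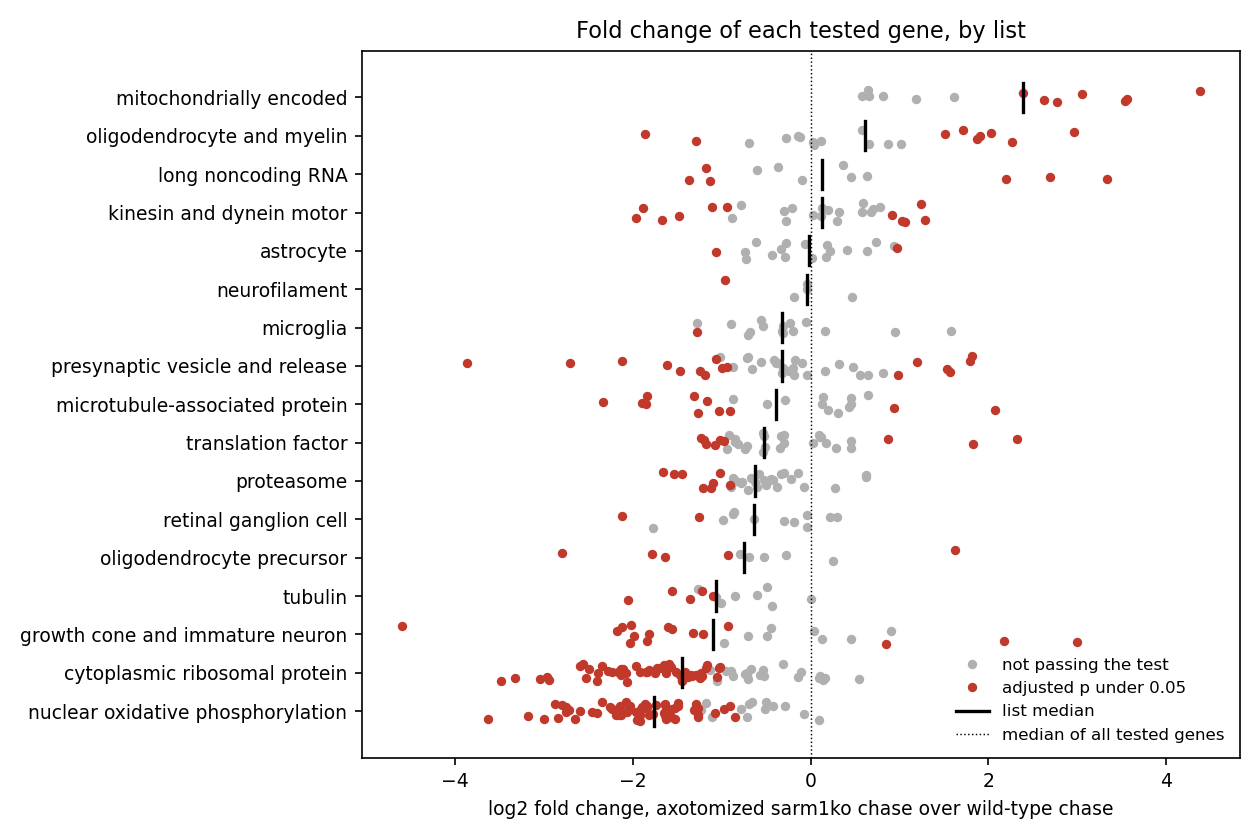
Log2 fold change (axotomized sarm1ko minus wild-type chase) of the tested genes in each list, 1 point per gene with called genes marked, and the median of each list. Nuclear oxidative phosphorylation genes centre on -1.76 and cytoplasmic ribosomal proteins on -1.44, while mitochondrially encoded genes centre on 2.39.

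Genes of cytoplasmic ribosomal proteins fell as well. Of 75 tested 53 fell and none rose, with a median of -1.44: 30 of 44 genes of the large subunit and 23 of 31 of the small subunit. Rps15, for example, was at 43.9, 54.9 and 47.6 CPM in sarm1ko and 277, 573 and 358 CPM in wild type, a log2 fold change of -3.04 ± 0.34 (SE; edgeR adjusted p = 0.000229). The most abundant members did not pass. Rpl3 had a log2 fold change of -0.32 ± 0.34 (SE; edgeR adjusted p = 0.544), and Rpsa, at 553, 672 and 633 CPM against 553, 1043 and 1422 CPM, of -0.70 ± 0.37 (SE; edgeR adjusted p = 0.192). The list sums were 6350, 11020 and 7144 CPM in sarm1ko and 13670, 23980 and 21030 CPM in wild type. The count fell to 25 without sarm1ko replicate 1, to 26 without sarm1ko replicate 3 and to 29 without wild-type replicate 2. It was 18 with the spread of 6 EU groups and 23 after removal of the length trend. On rescaled TPM 21 fell and 5 rose.

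Translation factors, which work with the ribosome, had calls in both directions. Of 32 translation factors 6 fell (18.8%, beside 11.3% of all tested genes) and 3 rose (9.38%, beside 9.86%), with a median of -0.52. The risers were Eif4a2, an RNA helicase of initiation, Eef1a2, the elongation factor of mature neurons and muscle, and Eif4b, which was chosen after its values were seen. Eif4a2 stood at 212, 262 and 218 CPM against 83.2, 70.1 and 41.2 CPM, a log2 fold change of 1.83 ± 0.32 (SE; edgeR adjusted p = 0.00191). Eef1a2 rose by 2.32, but not without sarm1ko replicate 1 or 3 (highest edgeR adjusted p = 0.0644). Eef1a1 had a log2 fold change of -0.30 and overlapping groups. No translation factor was called with the spread of 6 EU groups. Without sarm1ko replicate 1 none of the list fell and 1 rose, without sarm1ko replicate 3 it was 1 and 1, 2 fell without wild-type replicate 2 and 12 fell without wild-type replicate 1.

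Mitochondrially encoded mRNAs, which belong to the same complexes, were higher where they were called. All 13 had a log2 fold change above 0, 7 rose, none fell, and the median was 2.39. The list sums overlapped, at 51060, 46470 and 210000 CPM in sarm1ko and 60180, 14950 and 20100 CPM in wild type. On the scale of 15 EU libraries the highest 8-week wild-type sum was 142400 CPM, within the sarm1ko range of 50190 to 217300 CPM. With the spread of 6 EU groups 1 rose, and on deposited TPM 3 rose. The largest log2 fold change was that of mt-Atp8, an ATP synthase subunit, at 290, 372 and 863 CPM against 18.8, 24.6 and 29.8 CPM, a log2 fold change of 4.38 ± 0.45 (SE; edgeR adjusted p = 0.000129). Without sarm1ko replicate 3 it was 3.76. mt-Nd2, of complex I, was at 1350, 1667 and 7647 CPM against 534, 143 and 240 CPM and rose by 3.54, with 2.3 without sarm1ko replicate 3 and 4.21 without wild-type replicate 1. mt-Nd4l rose by 3.56, with 2.47 without sarm1ko replicate 3. In both genes sarm1ko replicate 3 is the highest library. mt-Co1, of complex IV, rose by 2.63, but not without sarm1ko replicate 3, where the value was 1.46, or wild-type replicate 2 (highest edgeR adjusted p = 0.154). mt-Nd1, at 5278, 4882 and 18418 CPM against 12511, 2080 and 3671 CPM, had overlapping groups. The number that rose was 3 without sarm1ko replicate 3 and 4 without wild-type replicate 2. mt-Atp8 overlaps mt-Atp6, mt-Nd4l overlaps mt-Nd4, and nuclear copies of mitochondrial DNA can share reads with any of these genes.

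The proteasome degrades tagged proteins. Of 31 proteasome genes 8 fell and none rose, with a median of -0.62. Psmb5, a catalytic subunit, was at 64.1, 109 and 81.7 CPM against 184, 324 and 230 CPM, a log2 fold change of -1.53 ± 0.32 (SE; edgeR adjusted p = 0.00494). After removal of the length trend 1 proteasome gene fell and 1 rose, and none was called with the spread of 6 EU groups. The number that fell was 3 without sarm1ko replicate 1 or 3, 5 without wild-type replicate 2 and 14 without sarm1ko replicate 2. Of 16 glycolysis genes 4 fell: Eno1, by 1.46, Hk1, by 1.37, and Ldha and Gpi1, which were chosen after their values were seen. Reads of Eno1 may be shared with Eno1b, which rose, as given above. None of the 16 fell without sarm1ko replicate 1 or 3, 1 fell without wild-type replicate 2, 8 without wild-type replicate 1 and 10 without sarm1ko replicate 2. No glycolysis gene was called with the spread of 6 EU groups. Gapdh, a glycolytic enzyme, had a log2 fold change of -1.18 ± 0.43 (SE; edgeR adjusted p = 0.065). Among 21 chaperone genes 3 fell (14.3%) and 2 rose (9.52%), beside 11.3% and 9.86% of all tested genes. The numbers were 1 and 1 without sarm1ko replicate 1 and 1 and 0 without sarm1ko replicate 3. They were 3 and 1 without wild-type replicate 2 and 6 and 2 without wild-type replicate 3. Hspe1, the small mitochondrial chaperonin, fell from 40.2, 51.9 and 51.1 CPM to 13.5, 17.1 and 9.85 CPM, by 1.82 on the log2 scale. Hspa4 rose by 1.49, and the other members called, Cct8, Dnajb1 and Hsph1, were chosen after their values were seen. Hspa4 was not called without sarm1ko replicate 1 or 3 (highest edgeR adjusted p = 0.0622). Hspa8 and Hsp90ab1, the abundant cytosolic chaperones, did not pass, with log2 fold changes of -0.67 and -0.04.

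Axons are built on microtubules, which are assembled from tubulin, held by binding proteins and used as tracks by motors. Of 13 tubulin genes 5 fell and none rose, with a median of -1.06. With the spread of 6 EU groups none of them was called, and on rescaled TPM 1 fell. Tubb2a, a neuronal beta-tubulin, was at 228, 384 and 242 CPM against 575, 1221 and 1741 CPM, a log2 fold change of -2.05 ± 0.42 (SE; edgeR adjusted p = 0.00466). The most abundant, Tuba1a, was at 1241, 1363 and 996 CPM against 1336, 2428 and 3760 CPM. The Tuba1a groups overlapped in replicate 2 of sarm1ko and replicate 1 of wild type, and its log2 fold change of -1.06 ± 0.42 (SE) had an edgeR adjusted p of 0.0831. The number of tubulins that fell was 1 without sarm1ko replicate 1 or 3, 2 without wild-type replicate 2, 3 without wild-type replicate 3 and 9 without wild-type replicate 1.

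Of 22 microtubule-associated proteins 9 fell (40.9%, beside 11.3% of all tested genes) and 2 rose (9.09%, beside 9.86%), with a median of -0.39. Dpysl4, of the collapsin response mediator family, fell by 2.33 and Mapre3, a plus-end binding protein, by 1.89. Mapre3 was at 20.3, 24.0 and 26.2 CPM against 95.5, 100.02 and 66.7 CPM. The 2 that rose, Map7 and Map4, were chosen after their values were seen. Map1b and Mapt, the axonal proteins MAP1B and tau, did not pass, with log2 fold changes of 0.46 and -0.87. Leaving out sarm1ko replicate 1 or 3 left 4 that fell, and without any 1 of sarm1ko replicates 1 to 3, wild-type replicate 2 or wild-type replicate 3 the number that rose was 1. Without wild-type replicate 2 or 3 the number that fell was 6. Among 5 neurofilament genes Ina, internexin, fell by 0.96. Nefl, at 334, 293 and 261 CPM against 284, 302 and 325 CPM, had a log2 fold change of -0.04 ± 0.28 (SE; edgeR adjusted p = 0.944), and Nefm of -0.19. The Ina call was lost without sarm1ko replicate 1 or 3 or wild-type replicate 2 or 3 (highest edgeR adjusted p = 0.156).

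Motor genes had calls in both directions. Of 27 kinesin, dynein and dynactin genes 6 fell (22.2%) and 5 rose (18.5%), with a median of 0.13. Of all tested genes 11.3% fell and 9.86% rose. Dynll1, a dynein light chain, was at 35.3, 52.1 and 36.8 CPM against 132, 190 and 164 CPM, a log2 fold change of -1.97 ± 0.30 (SE; edgeR adjusted p = 0.000899), and Dctn3, a dynactin subunit, fell by 1.88. Both lay below all 12 wild-type EU libraries. Kif1a, the motor of synaptic vesicle precursors, was at 383, 441 and 348 CPM against 789, 737 and 717 CPM. It fell by 0.94, with a call lost without sarm1ko replicate 1 or 3 or wild-type replicate 2 or 3 (highest edgeR adjusted p = 0.179). Kif5a, a conventional kinesin of axons, was at 792, 530 and 819 CPM against 368, 400 and 369 CPM. It rose by 0.91 on this scale, with a call lost without any 1 library except sarm1ko replicate 2 (highest edgeR adjusted p = 0.198). On deposited TPM its value was -0.35, below 0 but above the median of all genes there, -0.75. The other members that rose, chosen after their values were seen, were Kif21a, Dync1li2, Kif1b and Kif5b. After removal of the length trend none rose and 6 fell. Without sarm1ko replicate 3 none rose and 3 fell. Without sarm1ko replicate 1 it was 1 and 3, and without wild-type replicate 2 or 3 it was 1 and 4. Without sarm1ko replicate 2 it was 3 and 7.

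Growth cones are the motile tips of growing axons. Of 24 genes of growth cones and immature neurons 13 fell and 3 rose, with a median of -1.09. Beside Tmsb10 the falls included Rtn1, a reticulon of neuronal endoplasmic reticulum, by 1.21, lost without sarm1ko replicate 1 or 3 or wild-type replicate 2 or 3 (highest edgeR adjusted p = 0.183). Cap1, an actin-recycling protein, rose from 5.44, 7.15 and 8.32 CPM to 48.7, 62.8 and 55.9 CPM, 7.98-fold higher with an SE of 0.32 on the log2 scale (edgeR adjusted p = 0.000177). The other risers were Sox11 and Cd24a, the latter chosen after its values were seen. Gap43, the growth-associated protein of axons, was at 239, 271 and 197 CPM against 192, 485 and 712 CPM, overlapped between the groups and did not pass (edgeR adjusted p = 0.0997). The list sums were 2946, 3856 and 2955 CPM against 4700, 6982 and 7986 CPM. On the scale of 15 EU libraries the sarm1ko sums, 3057 to 4165 CPM, lay within the range of the 8-week wild-type libraries, 2617 to 6908 CPM. With 1 library left out in turn 9 to 15 genes of the list fell and 2 to 3 rose. With the spread of 6 EU groups 5 fell and none rose, and on rescaled TPM 7 fell and 4 rose.

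Presynaptic genes moved in both directions. Of 39 vesicle and release genes 10 fell (25.6%, beside 11.3% of all tested genes) and 6 rose (15.4%, beside 9.86%), with a median of -0.32. Rab3a, a vesicle GTPase, was at 121, 158 and 120.3 CPM against 446, 737 and 564 CPM, a log2 fold change of -2.13 ± 0.32 (SE; edgeR adjusted p = 0.000874), and it lay below all 12 wild-type EU libraries. Sncb fell with it, as given above. Sv2a and Syt11, the most abundant of the list, did not pass, with log2 fold changes of -0.32 and -0.37. The numbers were 5 lower and 3 higher without sarm1ko replicate 1, without sarm1ko replicate 3 they were 5 and 2, without wild-type replicate 2 they were 5 and 4, and without wild-type replicate 3 they were 10 and 3. On deposited TPM 16 fell and none rose, and on rescaled TPM 6 fell and 11 rose.

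On the receiving side of synapses, 5 of 25 postsynaptic genes fell and 2 rose, with a median of 0.10. Grin1, the obligatory NMDA receptor subunit, was at 63.2, 61.7 and 61.1 CPM against 152, 222 and 133 CPM, a log2 fold change of -1.45 ± 0.29 (SE; edgeR adjusted p = 0.0041). Nlgn2, the neuroligin of inhibitory synapses, fell by 1.37, not without sarm1ko replicate 1 (edgeR adjusted p = 0.0548). Camk2b, a kinase subunit, fell by 1.17, not without sarm1ko replicate 1 or 3 or wild-type replicate 2 (highest edgeR adjusted p = 0.101). The other falls, Shank1 and Homer2, and the rises, Dlg1 and Dlg2, were chosen after their values were seen. The number that fell was 1 without sarm1ko replicate 1, 2 without sarm1ko replicate 3 or wild-type replicate 2 and 3 without sarm1ko replicate 2. None rose without sarm1ko replicate 1 or 3, and 1 rose without wild-type replicate 2 or 3. No postsynaptic gene was called with the spread of 6 EU groups. Of 24 voltage-gated channels 2 rose in edgeR (8.33%, near the 9.86% of all tested genes) and none fell, with a median of -0.28. Scn1a, a sodium channel, was at 349, 276 and 361 CPM against 79.1, 79.1 and 82.9 CPM, a log2 fold change of 2.03 ± 0.28 (SE; edgeR adjusted p = 0.000566), and Kcnc2, a potassium channel, rose by 1.56. Scn8a, the sodium channel of nodes, had a log2 fold change of -0.62 and did not pass. After removal of the length trend 2 channels rose and 4 fell, and 2 fell without wild-type replicate 1 and 1 without wild-type replicate 3.

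Genes tied to axon survival, the pathway in which SARM1 acts, did not share a direction. Of 21 tested 4 fell (19.0%, beside 11.3% of all tested genes) and 2 rose (9.52%, beside 9.86%), with a median of 0.02. The falls were Sarm1 itself, Bax, a pro-apoptotic pore protein, and Stmn3 and Stmn2, which encode tubulin-binding stathmins. Bax was at 13.7, 10.4 and 15.3 CPM against 35.2, 45.2 and 60.6 CPM, a log2 fold change of -1.85 ± 0.32 (SE; edgeR adjusted p = 0.00211). Stmn2 was at 261, 285 and 241 CPM against 383, 446 and 647 CPM, a log2 fold change of -0.91 ± 0.31 (SE; edgeR adjusted p = 0.0487), and its call was lost without any 1 library except wild-type replicate 1 (highest adjusted p = 0.194). The Stmn3 call was lost without sarm1ko replicate 1 or 3 or wild-type replicate 2 or 3 (highest edgeR adjusted p = 0.202). The rises, Mycbp2, an E3 ligase that lowers NMNAT2, and Mapk10, a JNK kinase, were chosen after their values were seen, with log2 fold changes of 1.48 and 0.79. Nmnat2, the labile NAD-synthesising enzyme of axons that holds SARM1 inactive, is named outside the rule and had a log2 fold change of 0.00. Without sarm1ko replicate 3 the list had 2 falls and no rise, and without sarm1ko replicate 1 or wild-type replicate 2 it had 2 falls and 1 rise. Without sarm1ko replicate 2 or wild-type replicate 1 or 3, 1 gene rose.

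Genes of the nerve injury response are known to be turned on in cell bodies after axotomy. Of 20 tested 4 fell and 1 rose, with a median of -0.46. Of all tested genes 11.3% were lower and 9.86% higher. Ecel1, a peptidase induced by nerve injury, was at 2.53, 3.68 and 6.35 CPM against 12.04, 20.3 and 19.2 CPM, a log2 fold change of -2.05 ± 0.45 (SE; edgeR adjusted p = 0.00639), and it lay below all 12 wild-type EU libraries. Stmn4 fell by 1.32, and Npy and Sesn2, chosen after their values were seen, by 1.602 and 1.48. Sox11, a transcription factor of growth and regeneration, was at 90.9, 87.1 and 98.5 CPM against 63.9, 43.2 and 46.0 CPM. It rose by 0.85, with a call lost without any 1 library except wild-type replicate 1 (highest edgeR adjusted p = 0.157). Its value on deposited TPM was -0.34, below 0 but above the median of all genes there, -0.75. Jun did not pass, with a log2 fold change of -0.23. The list had 1 fall without sarm1ko replicate 1 and 2 without sarm1ko replicate 3 or wild-type replicate 2.

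Among the markers of cell types, those of retinal ganglion cells held 2 falls, no rise and 11 genes that did not pass, with a median of -0.64. The falls are 15.4% of those tested, beside 11.3% of all tested genes. Thy1, a surface protein of ganglion cells and other neurons, was at 78.9, 125 and 93.2 CPM against 336, 615 and 339 CPM, a log2 fold change of -2.12 ± 0.34 (SE; edgeR adjusted p = 0.00133). Sncg, gamma-synuclein, was at 10.02, 7.77 and 6.87 CPM against 14.6, 22.6 and 21.6 CPM and fell by 1.25, with a call lost without any 1 library except wild-type replicate 1 (highest edgeR adjusted p = 0.108). The list sums were 995, 917 and 774 CPM in sarm1ko and 1193, 1529 and 1278 CPM in wild type, and did not overlap. With sarm1ko replicate 1, 2 or 3 or wild-type replicate 2 left out 1 marker fell. In 4 of the fits with 1 library left out, those without sarm1ko replicate 3 or any wild-type library, 14 or 15 markers could be tested and 1 rose. A marker also rose without the filter, without CT010467.1 and the mitochondrial genes, and with protein-coding genes alone.

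**Figure D3:**
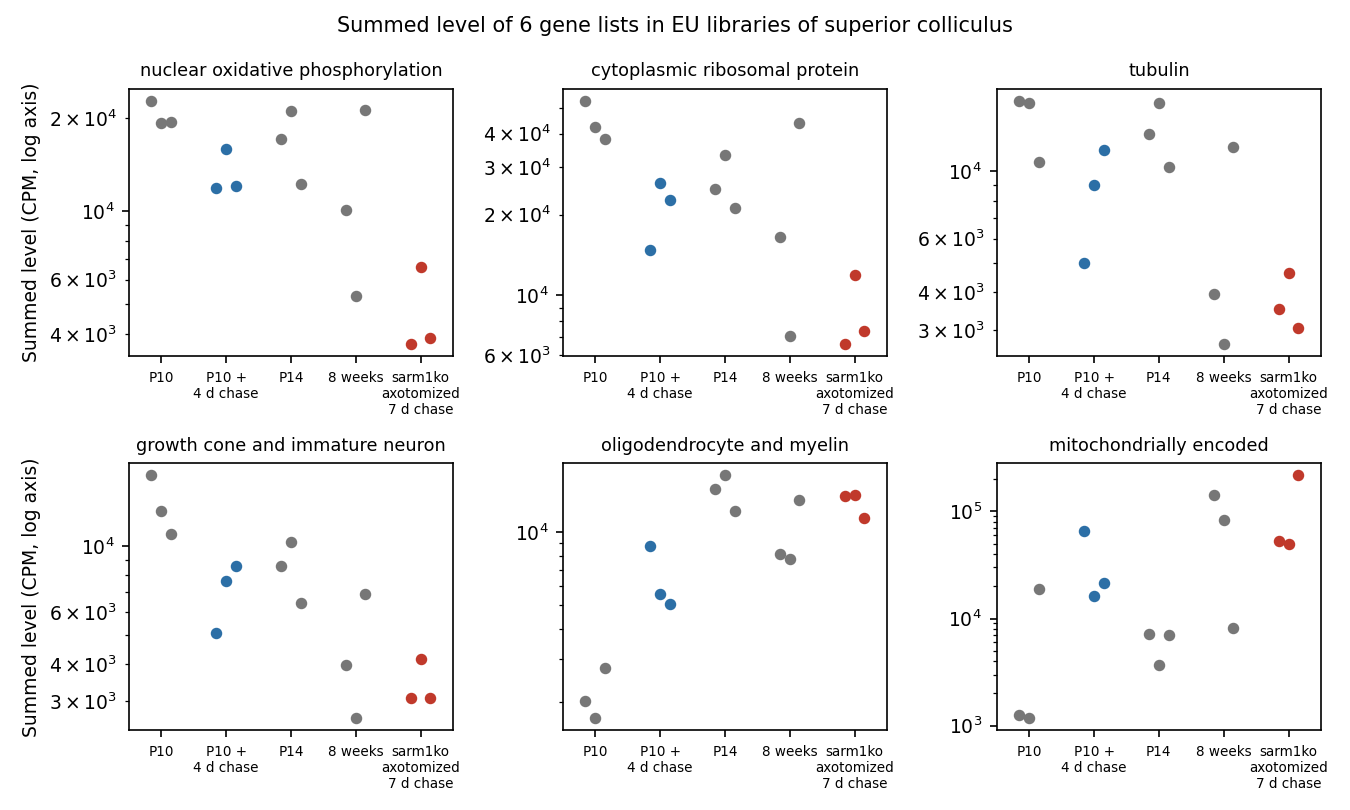
Summed level (CPM, log axis) of 6 gene lists in each library of 5 SC EU groups, wild-type P10, P10 with chase, P14 and 8 weeks, and axotomized sarm1ko. The nuclear oxidative phosphorylation sums of sarm1ko, 3705 to 6572 CPM, lie below the chase libraries at 11940 to 15880 CPM and overlap the range of the 8-week libraries, 5326 to 21290 CPM.

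Oligodendrocytes wrap axons in myelin and arise from precursor cells after birth. Of 20 myelin genes 7 rose, 2 fell and 11 did not pass, with a median of 0.62. Mal, a myelin proteolipid, was at 188, 201 and 169 CPM against 60.8, 32.8 and 22.0 CPM and rose by 2.27 (edgeR adjusted p = 0.00127). Trf, the transferrin of oligodendrocytes, rose by 1.91. Its value on deposited TPM was -0.39, below 0 but above the median of all genes there, -0.75. Mbp, at 5256, 5485 and 3942 CPM against 3532, 2375 and 2117 CPM, did not overlap between the groups and did not pass (log2 fold change 0.87 ± 0.41 (SE), edgeR adjusted p = 0.14). Of the falls, Cldn11, the claudin of myelin, was chosen after its values were seen. Without sarm1ko replicate 1 or wild-type replicate 2 the numbers were 3 higher and 1 lower, without sarm1ko replicate 3 they were 5 and 1, and 2 rose with the spread of 6 EU groups. On deposited TPM 1 rose and 2 fell.

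Of 10 precursor genes 4 fell and 1, Vcan, which was chosen after its values were seen, rose, with a median of -0.74. Gpr17, a receptor of precursors that are about to differentiate, was at 11.1, 15.9 and 19.7 CPM against 74.0, 127 and 124 CPM, a log2 fold change of -2.80 ± 0.34 (SE; edgeR adjusted p = 0.00031). Sox10, a transcription factor of the lineage, fell by 1.78. Olig1 fell by 0.93, and its call was lost without sarm1ko replicate 1 or 3 or wild-type replicate 2 or 3 (highest edgeR adjusted p = 0.17). The precursor sums, 276 to 317 CPM against 476 to 640 CPM, did not overlap, nor did the myelin sums, 11080 to 13520 CPM against 4685 to 8098 CPM. On the scale of 15 EU libraries the myelin sums of sarm1ko were 11460 to 14150 CPM. They overlapped those of intact wild-type animals at P14, 12200 to 17110 CPM, and at 8 weeks, 7733 to 13490 CPM. Vcan was not called without sarm1ko replicate 1 or 3 or wild-type replicate 3.

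The other glia of the SC are astrocytes and microglia. Of 18 astrocyte genes Gfap rose and Aldh1l1 fell, 5.56% in each direction, and on rescaled TPM 4 rose and none fell. Gfap, the filament of reactive astrocytes, was at 203, 219 and 345 CPM against 87.1, 170 and 132 CPM. Its log2 fold change was 0.98 ± 0.33 (SE; edgeR adjusted p = 0.0481), and the call was lost without any 1 library (edgeR adjusted p from 0.0567 to 0.255). The Gfap value on deposited TPM was -0.17, below 0 but above the median of all genes there, -0.75. On the scale of 15 EU libraries Gfap was at 211, 236 and 356 CPM in sarm1ko. Intact wild-type libraries were at 470, 374 and 268 CPM at P14 and at 345, 189 and 346 CPM at 8 weeks. Aldh1l1 was lost without sarm1ko replicate 1 or 3 or wild-type replicate 2 or 3 (highest edgeR adjusted p = 0.18). With 1 library left out in turn 0 to 2 astrocyte genes rose and 0 to 2 fell. Of 16 microglia genes Tmem119 fell, by 1.28, and was lost without any 1 library except wild-type replicate 3 (highest edgeR adjusted p = 0.119), and 2 microglia genes fell without that library. Of 14 genes of phagocytic microglia 2 rose (14.3%) and 1 fell (7.14%), beside 9.86% and 11.3% of all tested genes, and on rescaled TPM 5 rose and none fell. Spp1, osteopontin, was at 20.2, 20.6 and 11.8 CPM against 2.996, 3.86 and 4.55 CPM and rose by 2.20. The other riser, Lpl, was chosen after its values were seen, and without any 1 of sarm1ko replicates 1 to 3 or wild-type replicate 2 only 1 of the 14 rose, while 2 fell without sarm1ko replicate 2. Igf1 fell by 1.32, not without sarm1ko replicate 1 or 3 or wild-type replicate 1 (highest edgeR adjusted p = 0.129), and on rescaled TPM its sign turned to 0.67.

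The SC holds many inhibitory neurons. Of 12 genes of GABAergic neurons 4 fell and 3 rose, against 4 and 0 on deposited TPM and 3 and 0 with the spread of 6 EU groups. Gad1, a GABA-synthesising enzyme, was at 230.0, 294 and 341 CPM against 108, 107 and 80.6 CPM and rose by 1.55, while Slc32a1, the vesicular GABA transporter, was at 3.47, 5.42 and 4.02 CPM against 37.2, 38.2 and 21.6 CPM and fell by 2.89. Gad1 was not called on deposited TPM, with 0.33 (limma adjusted p = 0.725), or with the spread of 6 EU groups (edgeR adjusted p = 0.29). Sst, somatostatin, fell by 2.99. The other falls, Calb2 and Npy, and, of the other rises, Gabrb2 were chosen after their values were seen. Gad1 overlaps Gad1os on the opposite strand, and the strand setting of the counts is not given in the sources used here. A single gene of the list, 1 of 12, rose without sarm1ko replicate 1 or 3. Of 13 transcription factors of SC neurons 3 fell, Barhl1, Tfap2b and Otx2, and 1 fell without sarm1ko replicate 1 or 3 or without wild-type replicate 2 or 3, while 5 fell without wild-type replicate 1. Red blood cell and rod genes had no call in edgeR, with 6 and 5 tested, but 2 red blood cell genes fell without wild-type replicate 1 and 1 rose without wild-type replicate 3.

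Malat1 and Neat1 are long noncoding RNAs that stay in the nucleus. Malat1 was at 9242, 7335 and 7871 CPM against 1614, 723 and 1428 CPM, a log2 fold change of 2.70 ± 0.46 (SE; edgeR adjusted p = 0.00184), and lay above all 12 wild-type EU libraries. Neat1, the scaffold of paraspeckles, was at 53.7, 46.4 and 78.0 CPM against 9.38, 5.44 and 2.82 CPM and rose by 3.34. Meg3, a neuronal imprinted RNA, was at 10405, 6333 and 7838 CPM against 11278, 9761 and 10535 CPM and did not pass (edgeR adjusted p = 0.604). Of 12 such RNAs 3 rose and 3 fell, the third riser Snhg14 and the falls Pantr1, Peg13 and Mirg chosen after their values were seen. No fall was called without sarm1ko replicate 1 or 3 or wild-type replicate 2, and 1 was called without wild-type replicate 1.

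For lists with no call in 1 direction the picture was as follows. None of the tested oxidative phosphorylation, ribosomal protein, tubulin, glycolysis or ganglion cell genes was higher at an unadjusted edgeR p under 0.05, and DESeq2 called none of them higher. Of the proteasome genes 2 were higher at an unadjusted p and DESeq2 called 1. Among microglia genes 2 were higher at an unadjusted p, DESeq2 called 2 higher, and on rescaled TPM 2 rose and none fell. Among cholesterol synthesis genes 1 was higher at an unadjusted p and DESeq2 called 1 higher. Of the channels 4 were lower at an unadjusted p and DESeq2 called 1. On deposited TPM none of the channels rose and 6 fell, and on rescaled TPM 8 rose and none fell. Among red blood cell genes 1 was lower at an unadjusted p and in DESeq2, and among rod genes there was none. On rescaled TPM, where the median of all genes was 0.41, the count of rises passed that of falls in several lists. There were 3 rises and no fall among proteasome genes, 8 and 2 among motors, 6 and 2 among postsynaptic genes, 4 and 2 among translation factors, and 4 and 2 among axon survival genes. Among microtubule-associated proteins there were 5 of each. Relative to the median of all genes the oxidative phosphorylation, ribosomal protein, tubulin, growth cone and proteasome lists stayed below 0 on both TPM scales, and the myelin list stayed above 0.

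Calls by biotype were counted as well. Among 14319 protein-coding genes 8.74% rose and 13.2% fell, with a median of -0.12. Among 657 lincRNAs 13.7% rose and 2.89% fell, with a median of 0.60, and among 620 antisense genes 10.5% rose and 5.0% fell. Among 440 processed pseudogenes 19.5% rose and 9.77% fell.

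The direction of the calls went with transcript length. Genes were sorted into 5 bins of nearly equal size by effective length, as given by the ratio of estimated count to TPM. In the bin of shortest genes 22.5% fell and 5.11% rose, with a median of -0.53. In that of the longest 5.86% fell and 17.0% rose, with a median of 0.36. The medians between were -0.15, 0.02 and 0.18. Oxidative phosphorylation and ribosomal protein genes are short, with median lengths of -2.54 and -2.53 on the log2 scale relative to the median gene. Within the oxidative phosphorylation list the shorter 38 genes had 36 falls and a median of -2.11, and the longer 38 had 27 falls and a median of -1.29. Within the ribosomal protein list the values were 35 of 38 with -2.02 and 18 of 37 with -1.02. In the kinesin and dynein list the shorter 14 had 5 falls and 1 rise and the longer 13 had 1 fall and 4 rises. The part that length has in these results was not tested beyond the fit with its trend removed, in which 1444 genes rose and 1853 fell.

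**Figure D4:**
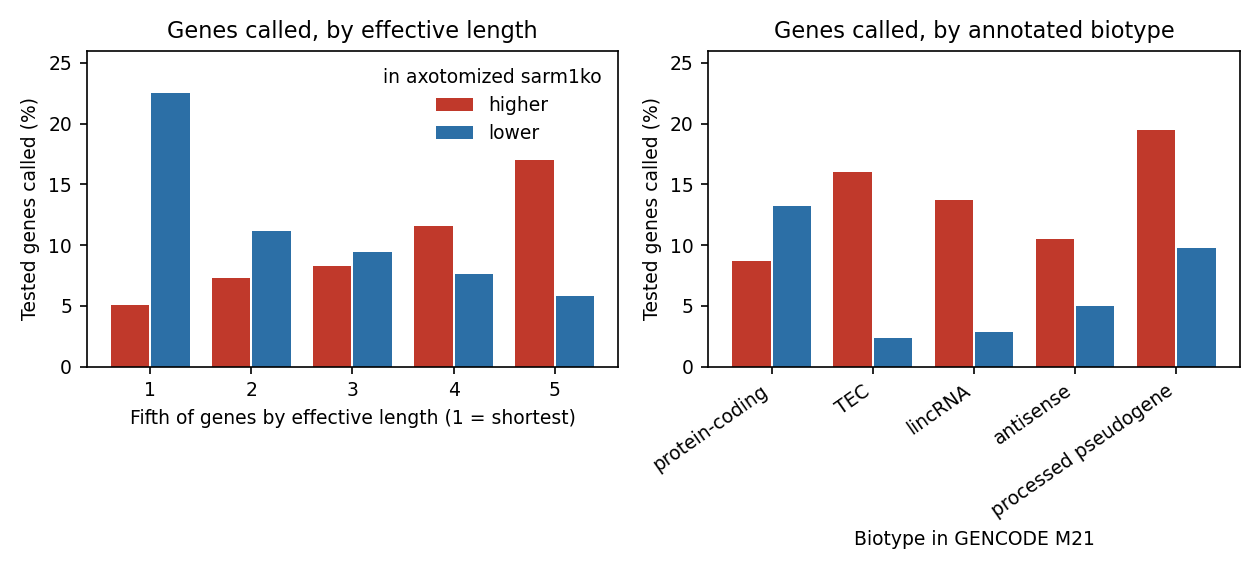
Share of tested genes called higher and lower in axotomized sarm1ko (%), by bin of effective transcript length (5 bins, 1 the shortest) and by biotype. The share called lower goes from 22.5% in the shortest bin to 5.86% in the longest while the share called higher goes from 5.11% to 17.0%, and lincRNAs have 13.7% higher and 2.89% lower.

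Against the other SC EU groups, many of the called levels fell within the range of intact wild-type animals of other ages. Of the 1774 genes that rose 287, or 16.2%, lay above all 12 wild-type libraries, and of the 2040 that fell 240, or 11.8%, lay below them, with 2.95% and 1.77% of all tested genes outside in these directions. Tmsb10, at 2.82 to 4.22 CPM in sarm1ko on this scale, was at 5.34, 3.87 and 46.5 CPM at 8 weeks and at 392.1 to 722 CPM at P10. Ttc9b was at 2.15 to 4.62 CPM, with 5.77, 3.51 and 35.1 CPM at 8 weeks and 123 to 277 CPM at P10. Mal was at 174 to 217 CPM, with 130.5, 178 and 33.3 CPM at 8 weeks and 5.97 to 11.4 CPM at P10. For these 3 genes replicates 1 and 2 of the 8-week group lay near the sarm1ko libraries, and replicate 3 lay nearer to P14. Uqcr11, at 10.6 to 20.7 CPM, was below the 8-week values of 56.7, 26.2 and 111 CPM. In the same 8-week replicate 2 Erbin reached 159 CPM and Scn1a 509 CPM, above the sarm1ko libraries at 81.2 to 113 CPM and 299 to 373 CPM.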

How the data were processed

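Reads were quantified with Salmon against mm10, per the submitters' processing notes. Tool versions, annotation release and strand setting: not given in the sources used here. One table, per the file headers, holds estimated counts per gene made by the authors, and the other holds the authors' TPM. Of 54331 genes 54097 were matched to GENCODE M21 on GRCm38, from which positions and biotypes come. The labels do not tie replicates to separate animals, so p-values measure only the spread between these libraries, which may be technical.

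Estimated counts were rounded, filtered with filterByExpr, scaled with TMM factors and tested with edgeR 4.0.16 (quasi-likelihood F test, two-sided, R 4.3.3) over the 6 libraries alone. Benjamini-Hochberg adjustment ran over 17991 genes, with a threshold of 0.05. Levels are TMM-normalised CPM, so an abundant gene can exceed its plain share. Levels in other groups used TMM factors over 15 EU libraries of 1 series of title codes, 12 of them wild type. Depth was 11085491 to 19226973 counts per library. Floors of 3 counts cover counting error alone, as no molecular identifiers were used.

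The members, gene lists and tests were chosen with earlier results of these data known. Named genes are Sarm1 and the 10 largest rises and falls that were called, did not overlap between the groups, changed by at least 1 on the log2 scale at an average log2 CPM of 4 or more, and carry no clone or prediction name and no pseudogene biotype. To them come, of each list, the 2 called members of smallest adjusted p and the 2 of highest CPM. Not every gene so named is reported here. Lists are described by counts and medians without a test of their own.

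Tried as alternatives were RLE size factors, the unfiltered table, the DESeq2 1.42.0 Wald test, limma 3.58.1 with a mean trend on log2(TPM + 1) and log2(TPM + 0.1), replicate numbers as a block, a spread shared over 6 EU groups, the fit without CT010467.1 and mitochondrial genes, a trend on length removed, and each library left out in turn. Chosen after seeing the data were the fit on nuclear protein-coding genes alone and limma on TPM rescaled over them. The procedure was tested on simulated data.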

Additional observations from a re-analysis of the deposited data

How the results depend on the processing

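The 3814 calls kept their number within 1.5 times under RLE size factors, no filter, DESeq2, both TPM scales, the fits without ribosomal and mitochondrial genes and with the length trend removed, and protein-coding genes alone. They numbered 460 with the spread of 6 EU groups (51 higher, 409 lower), where 3766 genes had an unadjusted p under 0.05. With 1 library left out in turn they ran from 1546 to 4773, the higher ones from 683 to 2247 and the lower ones from 850 to 2526. On deposited TPM 485 were higher and 4942 lower with a pseudocount of 1, and 410 and 4305 with 0.1. On rescaled TPM 777 were lower and 2547 higher. For each of these settings the cause was not tested. Sarm1 was called lower in every fit except that on rescaled TPM, with -1.07 (limma adjusted p = 0.0923). With the replicate numbers as a block 3717 genes were called, 1707 higher and 2010 lower. Deviations of same-numbered libraries correlated at 0.092, 0.125 and -0.025, so the numbers are not taken as pairs.

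Of 87 called named genes 57 kept their call with any 1 library left out, 31 with the spread of 6 EU groups and 27 in every alternative. The sign against 0 turned for 6 of the 87. On deposited TPM the median of all genes was -0.752 with a pseudocount of 1 and -1.023 with 0.1, and on rescaled TPM it was 0.411. Relative to these medians Igf1 alone of the 6 turned. With pseudocounts of 1 and 0.1 on deposited TPM it turned for Gfap (-0.17 and -0.17), Kif5a (-0.35 and -0.35), Sox11 (-0.34 and -0.37) and Trf (-0.39 and -0.4), and on rescaled TPM for Col4a1 (0.11) and Igf1 (0.67). Depth leaves genes at a few CPM, among them most defining ganglion cell markers, with little power.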

Other observations

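Extracellular matrix genes held 6 falls and 2 rises among 18 tested, with a median log2 fold change of -0.81. Col3a1, a fibrillar collagen of vessel walls and meninges, was at 4.03, 3.86 and 3.11 CPM in sarm1ko and 30.1, 25.1 and 23.3 CPM in wild type, a log2 fold change of -2.83 ± 0.36 (SE; edgeR adjusted p = 0.000374). Bcan, brevican of perineuronal nets, fell by 1.65. The other collagens that fell were Col4a1, by 1.67, and Col1a1, which was chosen after its values were seen, by 2.35. The rises, Hapln2 and Vcan, were also chosen after their values were seen. Without sarm1ko replicate 1 or 3 none rose and 4 fell, without wild-type replicate 2 or 3 it was 1 and 4, and 2 fell with the spread of 6 EU groups. Of 20 cholesterol synthesis genes 3 fell, among them Idi1, by 1.69, and Dhcr7, by 1.45, with Mvk chosen after its values were seen, and 1 fell without sarm1ko replicate 3 or wild-type replicate 2. Of 18 cell division genes 1 (5.56%), Tubb5, fell, with a median of -0.83 over the list. It was called only with all 6 libraries or without wild-type replicate 1, where 4 of the list fell.

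Around Sarm1 on chromosome 11, within 5 Mb on each side, 144 genes were tested, of which 13 rose (9.03%) and 19 fell (13.2%), close to the 9.86% and 11.3% of all genes. The median log2 fold change in this window was -0.09.

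A few genes were near 0 in 1 group, and they were chosen after their values were seen. Gm10800, in a repeat-rich stretch of chromosome 2, was at 14.7, 6.30 and 364 CPM in sarm1ko and at 0.0555, 0 and 0.353 CPM in wild type. On the scale of 15 EU libraries it reached 3158 CPM in replicate 2 of the 8-week wild-type group. 4921516A02Rik, annotated as antisense, was at 0 in all 3 sarm1ko libraries and at 109.7, 88.9 and 72.0 CPM in the wild-type chase libraries. It was also at 0 in 1 of 3 wild-type libraries at P14 and in 1 of 3 at 8 weeks.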
